A study of Mus musculus with 20 samples.

Results

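The mRNAs of 10 p53 target genes were followed in mouse embryonic stem cells (ESCs) with and without Cnot3. Cnot3 belongs to CCR4-NOT, which removes poly(A) tails from mRNAs in the cytoplasm. The genes were Cdkn1a, Mdm2, Ccng1, Trp53inp1, Bbc3, Pmaip1, Phlda3, Bax, Plk2 and Fas. They were chosen by name, as well-known targets of p53, but with earlier results of these data known. Counts of these genes called, set beside the shares of all genes, therefore describe the list and are no independent test. The genes were found by symbol among the 32919 of 37991 Ensembl gene IDs in the count tables that carry one. All 10 passed the filter on low counts in every fit.

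The study sequenced RNA from 20 libraries in 10 groups of 2 biological replicates. The cells carried a conditional Cnot3 allele, and 0.1 µM 4-hydroxytamoxifen (4OHT) was given to delete it (KO) or DMSO was given in its place (WT). Day 3 libraries were made from unfractionated RNA (total) or from polysomes, which are mRNAs carrying several ribosomes. On day 2, actinomycin D, which blocks transcription, was added at 10 µg/ml and whole-cell RNA was taken at 0, 4 and 8 h. The labels give the strain C57BL/6 for all libraries. They give E14Tg2a as the source of the 4 WT libraries of day 3 and Cnot3 cKO cells as the source of the other 16, while by the design text the DMSO arm was made of the conditional cells. Whether both arms of day 3 were 1 line cannot be told from the labels. In every comparison the KO arm differed from WT by 4OHT as well as by the deletion, and the effects of the drug and of the deletion cannot be told apart.

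p53 is a transcription factor that is held at a low level by continuous degradation and accumulates after DNA damage and other stress. Its targets include inhibitors of the cell cycle, proteins of the mitochondrial and receptor pathways of cell death, and Mdm2, which returns p53 to a low level in a feedback loop. In ESCs p53 is known to be abundant at the mRNA level and to respond to DNA damage by lowering pluripotency factors. How much of a target mRNA a cell holds depends both on how fast it is made and on how fast it is lost. The design separates these in part, since the level at 0 h holds both. The change after actinomycin D holds the loss, but only relative to the pool of mRNA that remains and to the scaling used.

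Cnot3 itself was lower in KO in every library. On day 2 it stood at 107.0 and 108.8 CPM (counts scaled to the size of the library) in WT and at 11.4 and 11.9 CPM in KO, a log2 difference of -3.21 ± 0.07 (SE). Gene counts per library ran from 27664391 to 35170012 in total RNA, from 13832829 to 16688555 in polysomes and from 14513891 to 33262905 in the actinomycin D series. WT polysome libraries spread most between replicates (chi-square per degree of freedom 70.8, against 1.27 for KO at 8 h). All 10 ESC markers were detected. Their summed level in total RNA was 5531 to 6081 CPM in WT and 3049 to 3232 CPM in KO, and 8 of 10 fell. Trophectoderm markers summed to 198 to 206.5 CPM in WT and 690.2 to 708.4 CPM in KO, with 11 of 13 higher. The 12 feeder fibroblast markers summed to 35.2 to 39.2 CPM in WT and 63.6 to 69.4 CPM in KO (8 of the 10 tested were higher). Among all genes 16% were higher and 12.2% lower in total RNA. In polysomes 3 of the 10 feeder markers tested were higher, against 15.9% of all genes. On day 2 at 0 h, feeder markers summed to 38.6 to 39.5 CPM in WT and 61.7 to 64.8 CPM in KO, where Lum and Dcn had no read in any library, and trophectoderm markers to 166.9 to 176.9 and 311.7 to 322.6 CPM. What part these cell types have in the values of the p53 targets was not tested. In bulk RNA, a change in the number of cells of a type and a change in RNA per cell cannot be told apart.

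A promoter of Cdkn1a is shown because a match to the p53 response element, a pair of 10-base repeats joined directly or by 1 base, lies close to 1 of its listed transcription starts. RefSeq promoter windows (GRCm38.p6, 250 bases before to 50 after a start) were on file for 8 of the 10 genes. The element was searched on both strands with the fixed core bases required and at most 3 mismatches in 20. It was found in 4 of those 8 genes, Cdkn1a, Ccng1, Bbc3 and Bax, and in 3.27% of the 27025 genes with a window. A further Cdkn1a window (chr17:29093519-29093818, plus strand) held no match, and neither did the further windows of Bbc3. In the Cdkn1a window with the match (chr17:29090729-29091028, plus strand) the capitals mark the element. It has 1 mismatch and begins 51 bases before the transcription start that the window is built on.
Cdkn1a promoter: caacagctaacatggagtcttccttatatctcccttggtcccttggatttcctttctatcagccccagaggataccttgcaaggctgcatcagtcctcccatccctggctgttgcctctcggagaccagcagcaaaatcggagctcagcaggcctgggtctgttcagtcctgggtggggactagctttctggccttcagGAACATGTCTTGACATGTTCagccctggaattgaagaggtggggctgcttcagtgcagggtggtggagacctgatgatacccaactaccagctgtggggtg
The other elements are given alone, so all of their bases are in capitals. That of Ccng1 has 1 mismatch, that of Bbc3 has 3, and that of Bax has 2 and a spacer of 1 base.
Ccng1 element (chr11:40755462-40755481, minus strand): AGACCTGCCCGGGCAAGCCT
Bbc3 element (chr7:16309486-16309505, plus strand): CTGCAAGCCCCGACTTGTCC
Bax element (chr7:45467079-45467099, minus strand): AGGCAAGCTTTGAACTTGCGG
The windows of Mdm2, Phlda3, Plk2 and Fas held no match, which says only that these letters are not in these windows. Of the 4 genes with a match, 3 were higher in KO on day 2 at 0 h and Bax was lower. Mdm2, Phlda3, Plk2 and Fas, without a match, were all higher, as were Trp53inp1 and Pmaip1, which had no window. Among all genes tested 29.8% were higher and 32.9% lower. A match is a description, not a bound site.

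The 3′ UTR is where many signals for deadenylation lie, so 3 sites are shown from the UTRs of the members. AU-rich elements, marked by ATTTA and in their stricter form by TTATTTATT, which contains ATTTA, and the Pumilio motif TGTANATA were searched on the transcript strand of GENCODE M21 transcripts. ATTTA was present in 6 of the 10 genes (8 times each in Mdm2, Ccng1 and Trp53inp1, 4 times in Cdkn1a and Pmaip1 and 2 times in Plk2), against 63.3% of 19770 genes with a 3′ UTR. TTATTTATT was present in Mdm2, Trp53inp1 and Plk2, against 7.10% of those genes. Among genes with a UTR of like length, 8.11% held it for Mdm2, 19.5% for Trp53inp1 and 4.26% for Plk2. The capitals mark TTATTTATT.
Mdm2 site: ggcattgatgTTATTTATTtgcaaataaa
Trp53inp1 site: acttccccttTTATTTATTtgttttctaa
Plk2 site: aataaactttTTATTTATTacagccccaa
TGTANATA was present 4 times in Trp53inp1 and 1 time each in Cdkn1a, Bbc3 and Pmaip1, against 22.6% of all genes. Among genes with a UTR of like length the share was 56.3% for Trp53inp1, 37.4% for Pmaip1, 26.6% for Cdkn1a and 19.5% for Bbc3. The short UTRs of Bax and Fas and that of Phlda3 held none of the 3 motifs. Of the 3 genes with TTATTTATT, Trp53inp1 and Plk2 held more of their 0 h level in KO after 8 h of actinomycin D and Mdm2 held less. Both outcomes were also seen without it. Ccng1 held more in KO (94.65% against 53.9% in WT), Phlda3, Pmaip1 and Bax held less, and the arms of Cdkn1a, Bbc3 and Fas overlapped. Whether the motif has a part in the loss was not tested.

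The first comparison asked how the targets stood in whole cells on day 3. Of the 10 genes 8 were higher in KO and Bax alone was lower, while Pmaip1 did not pass the test (edgeR quasi-likelihood test, adjusted p under 0.05 over all 18303 genes tested). Among all genes 16% were higher and 12.2% lower. The median log2 difference was 0.55 over the 10 genes and 0.01 over all genes. Both KO libraries lay above both WT libraries in 9 of the 10 genes, Pmaip1 included, and below them in Bax. That pattern held for 40.8% of all genes in the upward and 39.4% in the downward direction, so non-overlap of 2 against 2 libraries was common.

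Among the genes of cell cycle control and p53 feedback, Mdm2 and Plk2 differed most. Mdm2 (chr10:117688875-117710758, minus strand) encodes the ubiquitin ligase that marks p53 for degradation. It measured 221.8 and 208.0 CPM in WT and 499.2 and 489.4 CPM in KO. The KO libraries lay above 2 times the WT level, and the log2 difference was 1.20 ± 0.17 (adjusted p = 0.001125, edgeR). Plk2 (chr13:110395046-110400844, plus strand) encodes a polo-like kinase that acts in centriole duplication. It measured 68.1 and 64.0 CPM in WT and 227.4 and 222.1 CPM in KO. Its 2 arms were far apart, with a log2 difference of 1.77 ± 0.14 (edgeR adjusted p = 9.98e-05).

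Cdkn1a (chr17:29090976-29100727, plus strand) encodes p21, the inhibitor of cyclin-dependent kinases that halts the cell cycle downstream of p53. It measured 23.2 and 23.1 CPM in WT and 29.01 and 34.04 CPM in KO. The KO values were higher without overlap but spread more than those of WT, and the log2 difference of 0.44 ± 0.14 was just past the threshold (edgeR adjusted p = 0.03445). With RLE scaling or DESeq2 it was 0.38 and did not pass. Ccng1 (chr11:40748552-40755311, minus strand), which encodes cyclin G1, a partner of protein phosphatase 2A, went from 447.0 and 443.1 to 741.0 and 725.5 CPM (log2 0.72 ± 0.17). Trp53inp1 (chr4:11156431-11174379, plus strand), whose product acts in autophagy and in p53-dependent cell death, went from 574.4 and 563.6 to 851.6 and 848.9 CPM (log2 0.58 ± 0.16). Replicates of both genes lay close together and the arms did not overlap. Phlda3 (chr1:135766119-135769136, plus strand), whose product competes with the kinase Akt for membrane lipids, went from 59.6 and 62.4 to 86.8 and 87.0 CPM (log2 0.51 ± 0.14).

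The genes of the cell death machinery split. Bbc3 (chr7:16308393-16318205, plus strand) encodes Puma, a BH3-only protein that binds the survival members of the Bcl-2 family. It measured 22.8 and 24.3 CPM in WT and 34.3 and 33.6 CPM in KO (log2 0.53 ± 0.13). Bax (chr7:45461697-45466898, minus strand) encodes the protein that opens the outer mitochondrial membrane in apoptosis, and it went the other way, from 255.0 and 213.5 to 156.4 and 147.2 CPM. The WT values were wide apart, yet both lay above the KO values, and the log2 difference was -0.63 ± 0.16 (edgeR adjusted p = 0.0177). Pmaip1 (chr18:66458533-66465565, plus strand) encodes Noxa, another BH3-only protein. Its 39.1 and 35.9 CPM in WT and 42.2 and 40.6 CPM in KO were close, with a log2 difference of 0.14 ± 0.16 (edgeR adjusted p = 0.5236). Fas (chr19:34290666-34327772, plus strand), the death receptor, was the least covered gene, with 23 and 16 counts in WT and 66 and 77 counts in KO (0.81 and 0.64 against 2.42 and 2.62 CPM, log2 1.78 ± 0.38).

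The day 3 calls rested on all 4 total libraries. Mdm2 and Plk2 were the 2 genes still called higher when either WT library or the second KO library was dropped, and Fas joined them as the third when the first KO library was dropped. Bax was called only when the second WT library was the one dropped. With no filter on low counts 5 genes were called higher.

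**Figure D1:**
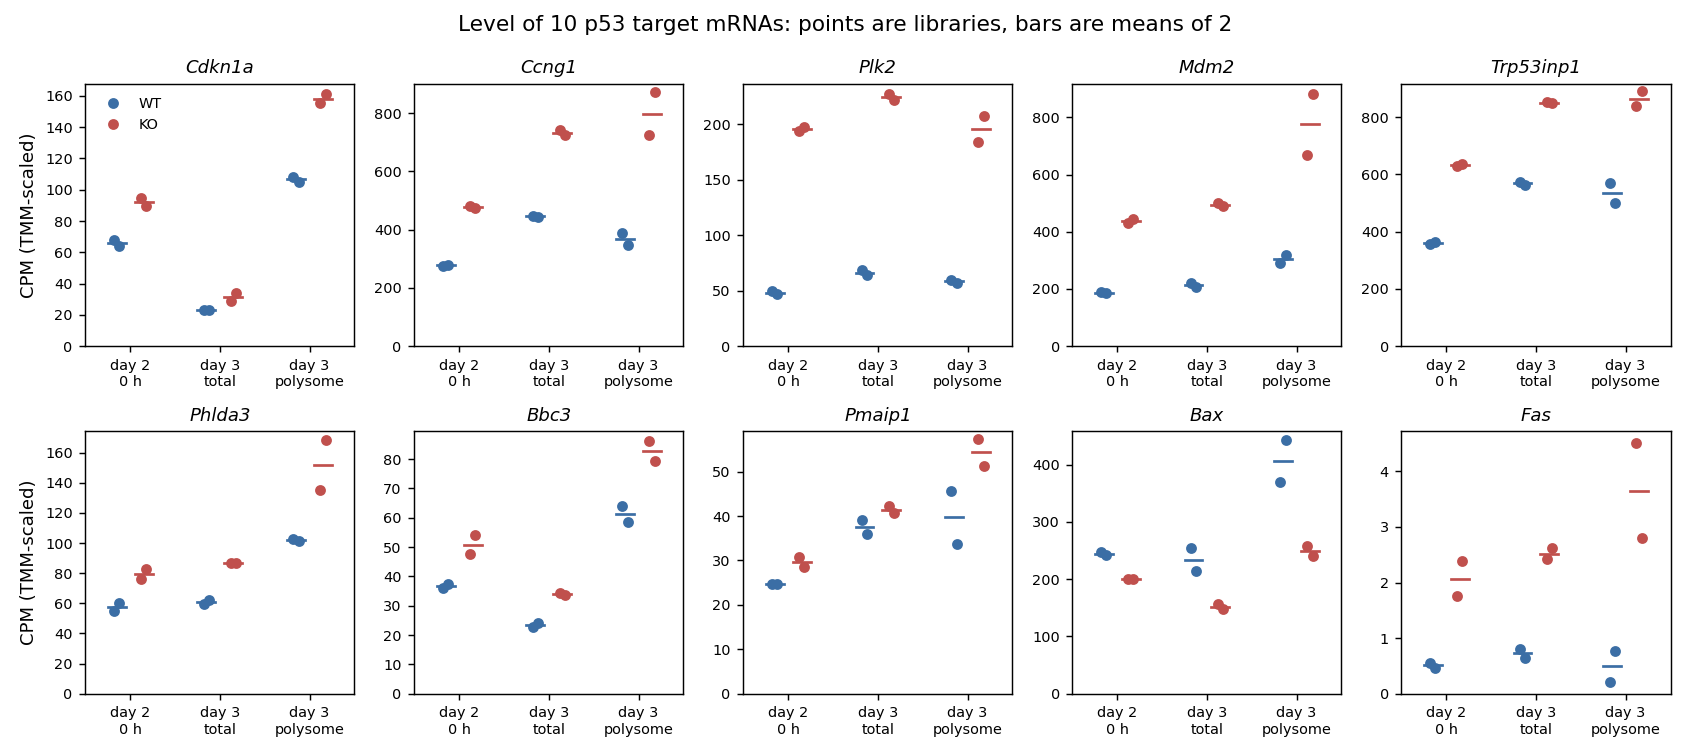
Level of each of the 10 p53 target mRNAs in TMM-scaled CPM (vertical axes, each from 0) at 0 h on day 2, in total RNA on day 3 and in polysomes on day 3, with WT in blue and KO in red, points for libraries and bars for means of 2. The 0 h values were scaled in a separate fit from the day 3 values. Red points lie above blue points in 9 genes at 0 h, and below them in Bax, for example 193.4 and 197.5 CPM in KO against 49.8 and 46.6 CPM in WT for Plk2.

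On day 2, before actinomycin D, 9 of the 10 genes were higher in KO and Bax was lower. Among all 15823 genes tested in these libraries 29.8% were higher and 32.9% lower, so a call was more common here than on day 3, and the median of the 10 genes was 0.63 against -0.01 for all genes. Plk2 differed most, with 49.8 and 46.6 CPM in WT and 193.4 and 197.5 CPM in KO, a log2 difference of 2.02 ± 0.06. Mdm2 went from 189.8 and 184.5 to 430.7 and 444.7 CPM, a log2 difference of 1.23 ± 0.04 (edgeR adjusted p = 5.00e-26). In both genes the KO level was more than 2 times that of WT in every library.

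Cdkn1a on day 2 measured 68.0 and 64.2 CPM in WT and 94.8 and 89.9 CPM in KO, with no overlap. Its log2 difference of 0.48 ± 0.05 (edgeR adjusted p = 2.33e-10) was close to the day 3 value and was measured with less error. Trp53inp1 rose by 0.80 ± 0.04 and Ccng1 by 0.79 ± 0.04 on the log2 scale. Bbc3 and Phlda3 each rose by 0.46, with SE of 0.08 and 0.06. Pmaip1 measured 24.6 and 24.7 CPM in WT and 30.7 and 28.4 CPM in KO. That small difference of 0.26 ± 0.07 passed the test on day 2 (edgeR adjusted p = 0.001462), and with RLE scaling or DESeq2 Pmaip1 was not among the genes called. Bax fell from 246.9 and 241.8 to 200.6 and 199.4 CPM, by 0.29 ± 0.04. Fas had 15 and 14 counts in WT and 39 and 50 counts in KO (log2 2.01 ± 0.33). Both KO libraries lay above both WT libraries in 9 genes and below them in Bax, as in 39.2% and 41.5% of all genes.

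The change in KO on day 3 was then set against that of day 2 in 1 fit of both sets of libraries. None of the 10 genes passed this test in either direction by edgeR, where 2.54% of 19071 genes were higher and 2.29% lower. At an unadjusted p under 0.05, 3 of the 10 were lower on day 3, where 18.2% of all genes passed in either direction. These were Bax (-0.30 ± 0.09), Plk2 (-0.22 ± 0.07) and Trp53inp1 (-0.19 ± 0.06), with adjusted p of 0.08665, 0.08813 and 0.08836 by edgeR. DESeq2 called Trp53inp1 and Bax lower, and RLE scaling called Trp53inp1 and Plk2. For Cdkn1a the difference between days was 0.00 ± 0.10 and for Mdm2 0.01 ± 0.07. Total RNA and 0 h libraries differ in kind, since 19.8% to 23.7% of reads fell outside genes in total RNA and 5.26% to 8.12% in the actinomycin D series, and the part of this in the day difference was not tested.

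In polysomes 9 of the 10 genes were higher in KO and Bax was lower. Among all 18303 genes 15.9% were higher and 21.1% lower, and the median was 0.63 against -0.08 for all genes. Both KO libraries lay above both WT libraries in 9 genes and below them in Bax, as in 27.9% and 34% of all genes. Apart from Fas, Plk2 differed most. It measured 59.1 and 57.2 CPM in WT and 184.1 and 207.7 CPM in KO polysomes (log2 1.75 ± 0.14), and Mdm2 289.6 and 316.8 against 669.8 and 883.1 CPM (1.36 ± 0.17). The arms were far apart in both, although the 2 KO libraries differed for Mdm2.

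Cdkn1a in polysomes measured 108.3 and 105.0 CPM in WT and 155.5 and 161.0 CPM in KO, a log2 difference of 0.57 ± 0.13 (edgeR adjusted p = 0.007609). Ccng1 went from 386.7 and 347.2 to 724.3 and 871.4 CPM, a log2 difference of 1.12 ± 0.17 that exceeded its difference in total RNA, although the difference between the fractions was not significant. Trp53inp1, Phlda3, Pmaip1 and Bbc3 rose by 0.69, 0.57, 0.46 and 0.44. Pmaip1 was just past the threshold (edgeR adjusted p = 0.048), and its WT libraries were wide apart, at 45.7 and 33.7 CPM against 57.4 and 51.2 CPM in KO. Bax fell from 368.8 and 443.0 to 258.3 and 239.8 CPM, by 0.70 ± 0.16. Fas had 3 and 13 counts in WT polysomes and 77 and 55 counts in KO polysomes. Without KO polysome replicate 2, 4 genes were called higher (Mdm2, Ccng1, Plk2 and Fas) and Bax was not called. In a fit of the 4 polysome libraries alone 6 were called higher, without Bbc3, Pmaip1 and Phlda3, and Bax was not called.

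Polysome association, the change in polysomes minus the change in total RNA, did not pass the test for any of the 10 genes. By edgeR 1 gene was called in each direction (0.00546% each), while 2304 genes had an unadjusted p under 0.05 and DESeq2 called 29 higher and 33 lower. The differences of the 10 genes ran from -0.09 ± 0.18 for Bbc3 to 0.40 ± 0.23 for Ccng1 and 1.02 ± 0.63 for Fas. For Cdkn1a it was 0.13 ± 0.19 and for Plk2 -0.01 ± 0.19. With standard errors of this size a difference of about 0.40 could not be told from 0, so a p that missed the threshold does not show equal association. Without WT polysome replicate 1, Ccng1 and Pmaip1 passed as higher, in a fit that called 9.05% of all genes higher and 15.2% lower.

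The loss of each mRNA was followed over 8 h of actinomycin D. Levels are relative to the pool of mRNA that remains, so a gene lost more slowly than the pool rises in CPM. Slopes were fitted in log2 per hour, and a positive difference between KO and WT stands for slower loss in KO. In WT 9 of the 10 genes fell against the pool and Bax rose (35% of all genes rose and 38.8% fell). In KO 8 fell, Bax rose and Ccng1 did not pass (31.6% and 36.3%). The difference in slope between arms passed for 4 genes. Ccng1 and Trp53inp1 were lost more slowly in KO, and Pmaip1 and Bax were lost faster, against 10.2% and 8.78% of all genes. These shares depend on scaling, since 1614 genes were slower and 1389 faster in the values used here and 2349 and 648 with library totals alone.

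Ccng1 showed the clearest difference. In WT 85.0% and 78.7% of its 0 h level remained at 4 h and 53.7% and 54.1% at 8 h. In KO 93.0% and 96.5% remained at 4 h and 94.1% and 95.2% at 8 h. Relative to the pool, the KO libraries thus held nearly their whole starting level while WT fell. With library totals the KO slope was -0.035 log2 per hour and with ribosomal protein scaling -0.11, both passing as a fall, and with mitochondrial scaling it was 0.064. Relative to the shift of the median of all genes it was -0.0099, -0.010 and -0.011. Such values come back near the one used here whatever the scaling, so they do not show which scaling is right. The slope was -0.11 ± 0.01 log2 per hour in WT and -0.0099 ± 0.0094 in KO, a difference of 0.10 ± 0.01 (edgeR adjusted p = 0.0001925). Trp53inp1 fell in both arms and more slowly in KO, with 35.5% and 37.9% left at 4 h and 17.9% and 20.3% at 8 h in WT. In KO 48.1% and 50.9% were left at 4 h and 30.1% and 30.8% at 8 h. All KO values lay above all WT values of the same hour, and the slopes differed by 0.085 ± 0.020 (edgeR adjusted p = 0.009556). Both calls were kept in 12 of 12 fits that left out 1 library each.

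**Figure D2:**
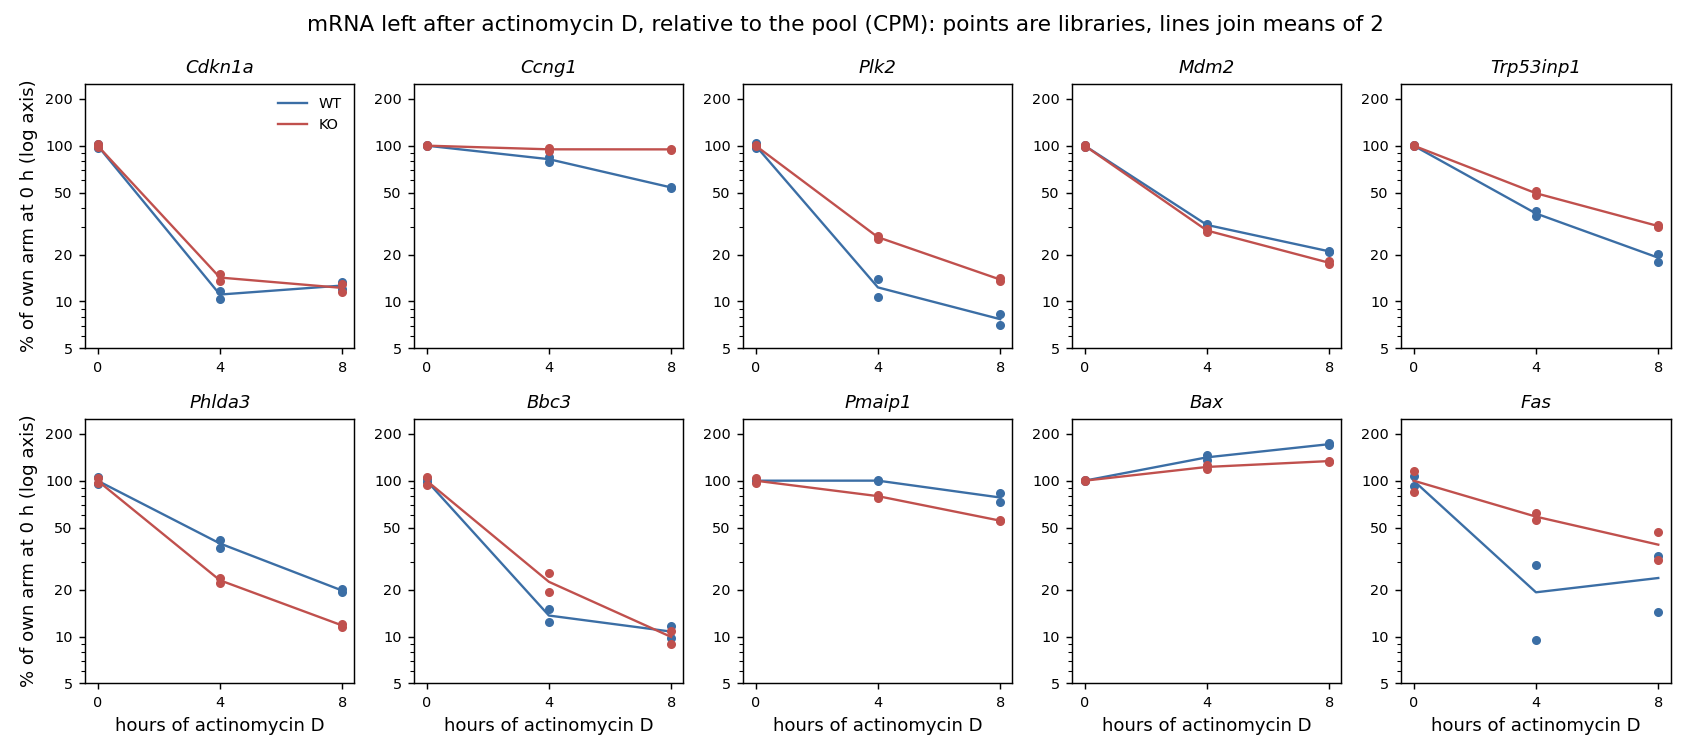
Percent of the mean 0 h level of the same arm that remained after 0, 4 and 8 h of actinomycin D (horizontal axes in hours, vertical axes logarithmic), for each of the 10 genes, with points for libraries, lines through means of 2, WT in blue and KO in red. The red line lies above the blue one at 4 and 8 h in Ccng1, Trp53inp1, Plk2 and Fas (3 counts or fewer in each WT library at 4 and 8 h) and below it at both times in Phlda3, Pmaip1, Mdm2 and Bax, where Bax rises against the pool in both arms.

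Plk2, Cdkn1a and Bbc3 were lost fast at first and slowly later, so that 1 straight line described them poorly. Fits that kept each time apart gave the 0 to 4 h, 4 to 8 h and 0 to 8 h differences separately. Over 0 to 4 h, 5 genes were slower in KO (Cdkn1a, Ccng1, Trp53inp1, Bbc3 and Plk2) and 3 faster (Pmaip1, Phlda3 and Bax), against 13.5% and 13.1% of all genes. From 4 to 8 h, 2 were slower (Ccng1 and Trp53inp1) and 3 faster (Cdkn1a, Bbc3 and Bax), against 11.1% and 11.3%. From 0 to 8 h, 3 were slower (Ccng1, Trp53inp1 and Plk2) and 4 faster (Mdm2, Pmaip1, Phlda3 and Bax), against 18.2% and 24.3%. The shares of the 10 genes were above those of all genes in both directions at 0 to 4 h, so the genes did not share 1 direction.

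Plk2 held 13.9% and 10.7% of its 0 h level at 4 h in WT and 25.3% and 26.4% in KO. At 8 h it held 8.28% and 7.11% in WT and 14.1% and 13.5% in KO. KO was higher at both times without overlap. The difference was 1.06 ± 0.11 log2 over the first 4 h (edgeR adjusted p = 3.19e-10), -0.24 ± 0.15 over the next 4 h (adjusted p = 0.2851) and 0.82 ± 0.13 over all 8 h (adjusted p = 4.80e-07). In the straight-line fit it was 0.13 ± 0.09 per hour and did not pass (adjusted p = 0.3148).

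Cdkn1a fell to 11.7% and 10.4% of its 0 h level in WT and to 13.47% and 15.01% in KO within 4 h. At 8 h 13.2% and 12.1% were left in WT and 12.9% and 11.5% in KO. The arms were apart at 4 h and overlapped at 8 h. The difference was 0.35 ± 0.12 over the first 4 h (edgeR adjusted p = 0.02122), -0.40 ± 0.14 over the next 4 h (adjusted p = 0.03423) and -0.06 ± 0.11 over 8 h (adjusted p = 0.7154). Bbc3 followed the same order, with 12.31% and 14.96% left in WT and 19.2% and 25.7% in KO at 4 h. At 8 h it held 11.7% and 9.77% in WT and 10.9% and 8.95% in KO. Its differences were 0.68 ± 0.16, -0.81 ± 0.22 and -0.13 ± 0.18 over the same stretches. For both genes the straight-line slopes were all but equal, at 0.00 ± 0.14 and -0.0035 ± 0.0941 log2 per hour for KO minus WT.

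Phlda3, Pmaip1, Mdm2 and Bax were lost faster in KO relative to the pool under the scaling used here. With RLE scaling, library totals, ribosomal protein or mitochondrial scaling or DESeq2, none was called faster in the straight-line fit. Fits that kept each time apart were made with the scaling used here alone. Phlda3 held 41.9% and 37.3% at 4 h and 20.2% and 19.2% at 8 h in WT, against 22.2% and 23.8% and then 12.1% and 11.5% in KO. Its arms were well apart at both times, by -0.75 ± 0.11 log2 over 8 h (edgeR adjusted p = 5.61e-07), although the straight-line difference of -0.097 ± 0.041 per hour did not pass (adjusted p = 0.119). Pmaip1 in WT still held 101.0% and 99.2% at 4 h and 72.5% and 83.5% at 8 h. In KO it held 81.5% and 77.7% at 4 h and 54.8% and 55.9% at 8 h, a slope difference of -0.062 ± 0.019 (edgeR adjusted p = 0.03937).

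Mdm2 was nearly alike in the arms, with 21.0% and 20.9% left at 8 h in WT and 17.4% and 18.1% in KO. The 0 to 8 h difference of -0.25 ± 0.06 was small but passed the test (edgeR adjusted p = 0.001356), and the straight-line difference was -0.03 ± 0.05. That straight-line difference was 0.0053 with ribosomal protein scaling and 0.0274 with mitochondrial scaling, and passed with neither. Bax rose against the pool to 174.0% and 169.1% in WT and 132.7% and 134.6% in KO at 8 h, a slope difference of -0.045 ± 0.013 (edgeR adjusted p = 0.02793). The calls of Pmaip1 and Bax were weak. Each was kept in 5 of 12 fits that left out 1 library, and neither was called without KO 0 h replicate 1, WT 0 h replicate 1 or 2, or KO 8 h replicate 1 or 2. One of the pair was lost without KO 0 h replicate 2, KO 4 h replicate 2 or WT 8 h replicate 1 or 2.

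Fas was too low for a comparison of loss. It had 1 and 3 counts at 4 h and 2 and 3 counts at 8 h in WT, and 33 and 18 and then 24 and 14 counts in KO. The slopes differed by 0.16 ± 0.10, which did not pass (edgeR adjusted p = 0.2645).

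The starting difference and the difference added during actinomycin D can be read side by side for each gene. They use the same 0 h libraries, so an error at 0 h enters the 2 values with opposite signs, and no relation between them is given as a result. For Ccng1 the log2 difference between KO and WT was 0.79 at 0 h, 1.00 at 4 h and 1.60 at 8 h. The gap at 8 h was about evenly made of the difference at 0 h and of that added during actinomycin D. The difference at 0 h can itself hold slower loss. For Trp53inp1 it was 0.80, 1.23 and 1.49. These 2 genes had both a higher start and slower loss in every fit of time. For Plk2 the gap was already 2.02 at 0 h and reached 3.08 at 4 h and 2.84 at 8 h. Most of it was thus present before transcription was blocked.

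For Mdm2 the gap was 1.23 at 0 h, 1.11 at 4 h and 0.98 at 8 h, a higher start and a gap that narrowed slightly under the scaling used here. Cdkn1a went from 0.48 over 0.83 back to 0.42, and Bbc3 from 0.46 over 1.15 to 0.33. For both, slower loss was measured within the first 4 h and none was detected over 8 h. Phlda3 went from 0.46 to -0.33 and -0.29 and Pmaip1 from 0.26 to -0.06 and -0.22. In these 2 genes KO started higher and ended lower than WT. Bax was lower at every time, by 0.29 at 0 h, and the gap was -0.50 at 4 h and -0.65 at 8 h. At 8 h 6 genes were higher in KO, 3 lower and Bbc3 did not pass, against 32.6% and 37% of all genes, and at 4 h 7 were higher and 2 lower, against 32.9% and 32.7%. The KO libraries lay above those of WT in 7 genes and below in 3 at both hours, as in 41.1% and 40% of all genes at 4 h and 40% and 44.1% at 8 h.

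**Figure D3:**
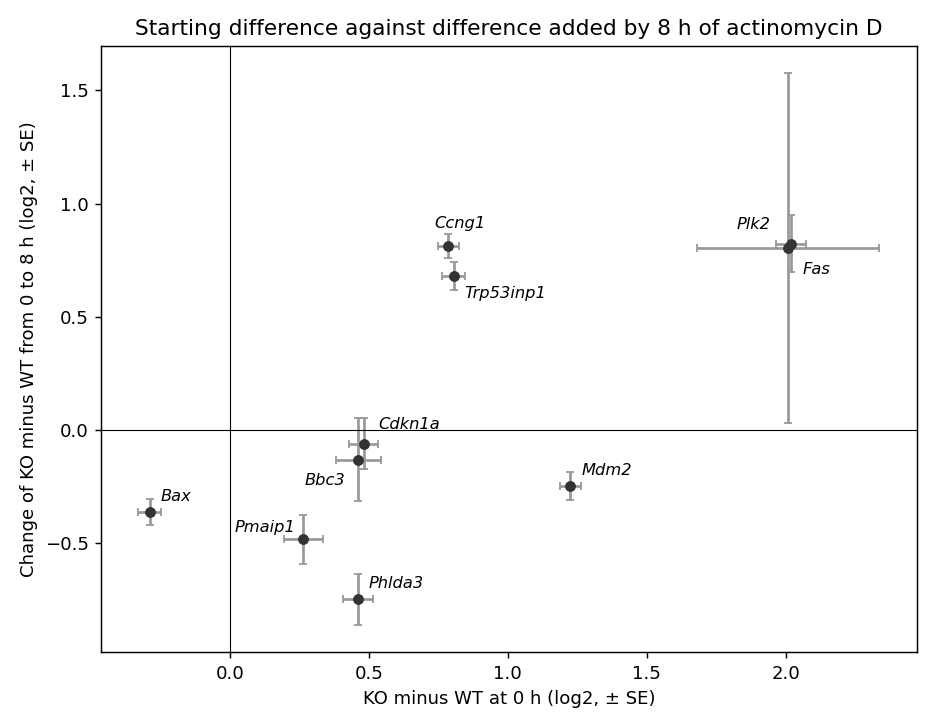
Log2 difference between KO and WT at 0 h (horizontal axis) and the change of that difference from 0 to 8 h of actinomycin D (vertical axis) for the 10 genes, with standard errors of the fit with time as a factor. Ccng1 (0.79 and 0.81), Trp53inp1 (0.80 and 0.68) and Plk2 (2.02 and 0.82) lie in the upper right, as does Fas with a wide error (2.01 and 0.80 ± 0.77). Cdkn1a and Bbc3 changed by -0.06 and -0.13 within their errors, Mdm2, Phlda3 and Pmaip1 have a higher start and a negative change, and Bax is negative on both axes.

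All of these differences are relative to the scaling of the libraries. Library totals moved the median of all genes up by 0.26 in total RNA, 0.15 at 0 h and 0.29 at 8 h, and scaling to ribosomal protein mRNAs moved it by 0.57, 0.41 and 0.68. Scaling to mitochondrial mRNAs moved it by 0.56, 0.49 and 0.95, and RLE scaling by -0.06, -0.14 and -0.06. The lower level of Bax at 0 h turned to 0.12 with ribosomal protein scaling and 0.21 with mitochondrial scaling. Relative to the shift of the median it was -0.29 and -0.28. A scaling moves all genes of a comparison by nearly the same amount. Values relative to the shift therefore come back near those used here, whatever the scaling. They do not show which scaling is right, and this was not tested. The lower levels of Phlda3 and Pmaip1 at 8 h turned positive with library totals, ribosomal protein and mitochondrial scaling, and relative to the shift Phlda3 was at -0.28 in all 3 and Pmaip1 at -0.21 or -0.22. At 4 h Bax and Phlda3 turned positive with ribosomal protein (0.11 and 0.28) and mitochondrial scaling (0.36 and 0.53). With mitochondrial scaling Fas was the 1 gene called higher in total RNA. The slope difference of Ccng1 ran from 0.11 to 0.16 and that of Trp53inp1 from 0.094 to 0.14 over these 4 scalings.

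The wider p53 pathway was described through lists of other genes, also chosen with earlier results of these data known. Of 25 other p53 targets 11 were higher and 1 lower in total RNA (median 0.43), against 16% and 12.2% of all genes. In polysomes 7 were higher and 2 lower (15.9% and 21.1% of all genes), and at 0 h on day 2, 16 were higher and 4 lower (median 0.44, against 29.8% and 32.9%). Btg2, an anti-proliferative protein that binds the CCR4-NOT nuclease, stood highest, at 1.77 ± 0.15 in total RNA and 1.80 ± 0.05 at 0 h. Perp, a desmosomal protein, differed by 1.69 ± 0.20 and 1.65 ± 0.07, Dcxr, a carbonyl reductase, by 1.37 ± 0.14 and 1.47 ± 0.09, Ephx1, an epoxide hydrolase, by 1.17 ± 0.23 and 1.41 ± 0.07, and Ppm1d, the phosphatase Wip1 that turns off p53 signalling, by 1.04 ± 0.15 and 0.89 ± 0.05. Apaf1, the scaffold of the apoptosome, rose by 1.03 ± 0.05 at 0 h. Ei24 was the 1 gene of the list that fell in total RNA, by 0.64 ± 0.18. The damage-response gene Gadd45a and the stress sensor Sesn2 were lower at 0 h, by 0.24 each.

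The straight-line slope differed between arms in 8 of these 25 targets, 6 slower and 2 faster in KO, against 10.2% and 8.78% of all genes. Tigar, a phosphatase of glycolysis control, had the largest difference (0.16 ± 0.02 log2 per hour), of those that passed, with Ephx1 (0.12 ± 0.02), Ckap2, a spindle protein (0.088 ± 0.016), and Sesn1 (0.085 ± 0.016). Tigar started lower in KO (-0.21 ± 0.05 at 0 h) and was higher at 8 h (1.02 ± 0.06), the reverse of Phlda3. Btg2 also passed as slower (0.13 ± 0.03). Perp, Dcxr, Ppm1d and Apaf1 did not pass in the straight-line fit, although the gap of Ppm1d went from 0.89 ± 0.05 at 0 h to 2.88 ± 0.10 at 4 h and 2.04 ± 0.11 at 8 h.

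**Figure D4:**
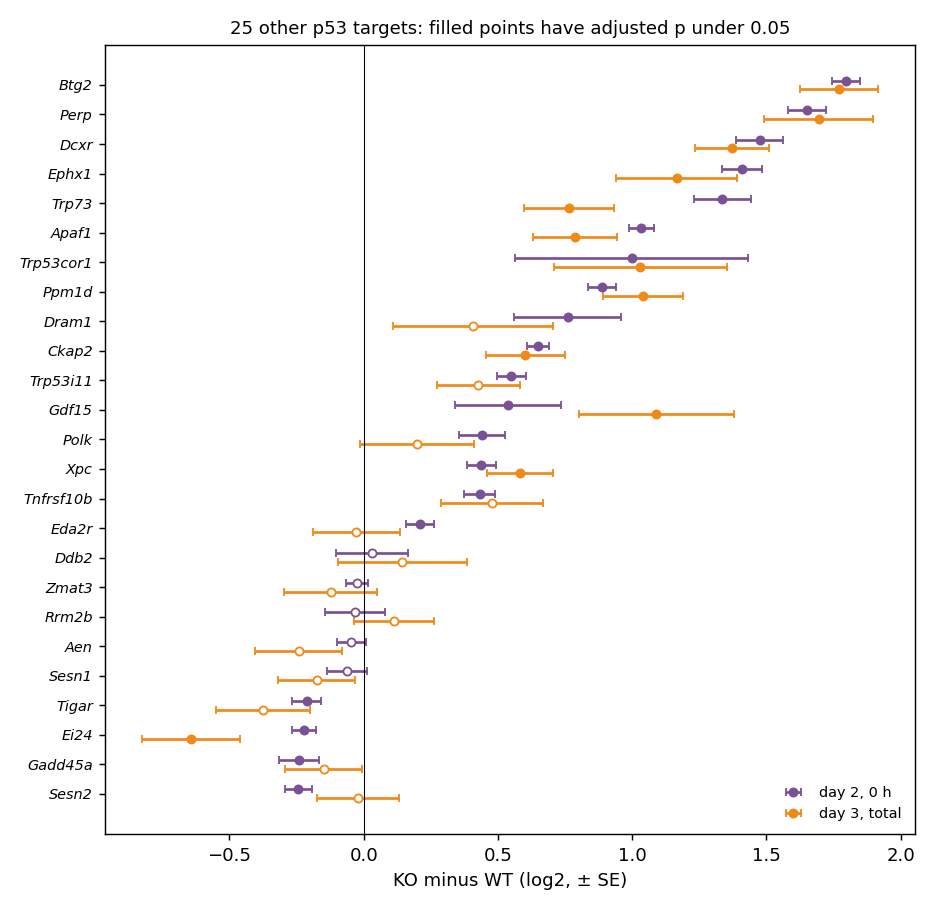
Log2 difference between KO and WT with its standard error for 25 other p53 targets, at 0 h on day 2 (purple) and in total RNA on day 3 (orange), ordered by the 0 h value, with filled points for adjusted p under 0.05 by edgeR. Btg2, Perp, Dcxr and Ephx1 lie above 1 in both, and Ei24, Gadd45a and Sesn2 are among those below 0 at 0 h.

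The gene for p53 itself, Trp53, was not higher in KO under the scaling used here. Its values with other scalings are not given. Scaling to ribosomal protein or mitochondrial mRNAs moved the median of all genes at 0 h by 0.41 and 0.49. It measured 322.6 and 325.9 CPM in WT and 218.9 and 239.9 CPM in KO in total RNA, a log2 difference of -0.50 ± 0.18 that missed the threshold (edgeR adjusted p = 0.06323). At 0 h it measured 577.6 and 543.8 CPM in WT and 498.6 and 518.7 CPM in KO (-0.14 ± 0.07), and its slopes differed by 0.0048 ± 0.0196. In polysomes the log2 difference was -0.03 ± 0.18. At 4 h Trp53 passed as lower (-0.26 ± 0.07, edgeR adjusted p = 0.006678), and at 8 h it did not (-0.10 ± 0.07). The change on day 3 minus that on day 2 was -0.32 ± 0.07 (edgeR adjusted p = 0.007323). RNA counts say nothing of the amount or activity of the p53 protein. Of 19 genes for p53 and its regulators, none was higher and Rpl11 was lower in total RNA, while in polysomes 1 was higher and 7 were lower (15.9% and 21.1% of all genes). At 0 h 5 of the 18 tested were higher and 7 lower (29.8% and 32.9%). Mdm4, the partner of Mdm2, fell by 0.96 ± 0.20 in polysomes, and the ubiquitin ligase Cop1 fell by 0.81 ± 0.15.

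Of 12 cell cycle genes that p53 is known to lower, Birc5, which encodes survivin, was the 1 lower gene in total RNA (-0.62 ± 0.14). There 16% of all genes were higher and 12.2% lower. At 0 h 7 were lower and 1 higher (32.9% and 29.8% of all genes), among the lower ones Birc5 (-0.52 ± 0.04) and Cdk1 (-0.42 ± 0.04). Of these 12, 8 were lost more slowly in KO and Birc5 faster (10.2% and 8.78% of all genes). Among 10 other genes of the Bcl-2 family 2 fell in total RNA, the effector Bak1 (-0.89 ± 0.15) and the BH3-only Bmf (-1.24 ± 0.19), and none rose. In polysomes 2 were higher and 3 lower (15.9% and 21.1% of all genes). At 0 h 2 were higher and 4 lower (29.8% and 32.9%), and at 8 h 4 were higher and 4 lower (32.6% and 37%). Of 4 other inhibitors of cyclin-dependent kinases that were tested, Cdkn2b rose by 1.22 ± 0.20 in total RNA. Cdkn1b fell by 0.80 ± 0.14 and Cdkn1c by 0.82 ± 0.15 there.

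The genes most like Cdkn1a over the 5 log2 differences (total, polysome, 0 h, 4 h and 8 h) were sought among 9169 genes by Euclidean distance. Ndel1 was nearest at 0.19, followed by Atg16l2 (0.26), Nol4l (0.26), Klc3 (0.26) and Plekhh2 (0.27). Ndel1 differed by 0.54 in total RNA, 0.53 in polysomes, 0.47 at 0 h, 0.95 at 4 h and 0.33 at 8 h, the same rise and return as Cdkn1a. None of these 5 genes was among the 10 targets or the 25 others.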

How the data were processed

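RNA sequencing was deposited as counts of reads per Ensembl gene for 20 libraries. Per the submitters' processing notes, the authors used STAR 2.3.0e, HTSeq and mm9; the kit's strandedness and the strand setting are not given in the sources used here. Gene IDs were matched to symbols and GRCm38 positions in GENCODE M21. The tallies that name no gene did not enter library sizes; reads outside genes were 4.75% to 23.7%. Antisense and overlapping reads cannot be told apart, which touches Cdkn1a and Bax, each of which shares exon bases with a gene model outside the files.

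Counts were fitted with edgeR 4.0.16 in R 4.3.3 (TMM, robust quasi-likelihood F-tests, genes kept by filterByExpr at a minimum count of 10), total and polysome libraries together and the 12 actinomycin D libraries together. Benjamini-Hochberg adjustment covered every gene of a fit, and the threshold was 0.05. CPM are TMM-scaled within a fit and SE are those of the fit. Named genes were the 10 members, Cnot3, Trp53, up to 4 genes of each other list with the smallest adjusted p in a comparison, and the 5 nearest Cdkn1a among genes of average log2 CPM of at least 3; Ei24, Gadd45a, Sesn2 and a few others named as examples were chosen after their values were seen. The members and lists were chosen with earlier results of these data known. The replicates are called biological in the design text.

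Alternatives were RLE scaling, library totals, scaling to ribosomal protein or mitochondrial mRNAs, no filter, a filter of 1 CPM in 2 libraries, DESeq2 1.42.0, a replicate block, a separate fit of each pair of groups, fits without 1 library, and time as a factor or in 2 stretches. Those of the 4 h levels were chosen after seeing the data. With 1 library left out, the single library left in a group borrows the spread of the rest. The scripts were tested on simulated data. Figures were drawn with matplotlib 3.10.9.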

Additional observations from a re-analysis of the deposited data

Results flagged for a closer look

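The change after actinomycin D differed between WT and KO, by a test of the difference itself, in 4 of the 10 genes. The slope difference was 0.10 log2 per hour for Ccng1 (0.1013) and 0.085 for Trp53inp1 (0.0852), both slower in KO. It was -0.062 for Pmaip1 (-0.0617) and -0.045 for Bax (-0.0451), both faster in KO relative to the pool. With RLE scaling, library totals, ribosomal protein or mitochondrial scaling or DESeq2, neither Pmaip1 nor Bax was called. Ccng1 and Trp53inp1 were called in all 12 fits with 1 library left out, and Pmaip1 and Bax in 5.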

How the results depend on the processing

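Over the 10 genes and 10 comparisons, 1978 values were computed under alternatives, those of the 4 h levels chosen after seeing the data. Of these 1742 kept direction and side of the threshold, 74 changed sign without a call under either setting, 103 lost the call, 32 gained one and 27 called values turned. The cause of these changes was not tested, and a shift of the median, where given, does not test it. Genes called higher in total RNA numbered 8, 5 with no filter and 1 with mitochondrial scaling (2 to 8 with 1 library left out). Genes called lower numbered 1 in total RNA, and 0 with library totals, ribosomal protein or mitochondrial scaling (0 to 1 with 1 library left out). In polysomes 9 were higher, 6 in a fit of 4 libraries or with mitochondrial scaling. Bax was the 1 lower gene there, and 0 were lower with ribosomal protein or mitochondrial scaling or in a fit of 4 libraries (0 to 1 with 1 library left out, where 4 to 9 were higher). At 0 h 0 were lower with both of those scalings, at 4 h 2 became 1 with library totals and 0 with both, and at 8 h 3 became 1 and 0. For the association, 0 to 2 genes were higher with 1 library left out. The 2 genes of faster loss in KO became 0 with RLE scaling, library totals, ribosomal protein or mitochondrial scaling and DESeq2, 4 with time as a factor, and 0 to 2 with 1 library left out, and the 2 of slower loss became 5 over 0 to 4 h. Between days, the 0 lower genes became 2 with RLE scaling or DESeq2 and 3 with no filter (0 to 3 with 1 library left out). In slopes within an arm, the 1 rising gene became 0 in WT and KO with ribosomal protein scaling and 2 in KO with mitochondrial scaling.

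Values that turned were, with library totals, Pmaip1 at 4 h (0.1835) and Pmaip1 (0.0735) and Phlda3 (0.0064) at 8 h. With ribosomal protein scaling they were Bax at 0 h (0.12), 4 h (0.1126) and 8 h (0.0316), Pmaip1 (0.5476) and Phlda3 (0.2787) at 4 h, Pmaip1 (0.46) and Phlda3 (0.40) at 8 h, and the slope of Bax in WT (-0.041) and KO (-0.052). With mitochondrial scaling they were Bax in polysomes (0.72), at 0 h (0.21), 4 h (0.3644) and 8 h (0.30), Pmaip1 (0.8009) and Phlda3 (0.5336) at 4 h, Pmaip1 (0.72) and Phlda3 (0.67) at 8 h, the slope of Ccng1 in KO (0.064) and the slope difference of Bax (0.012). Over 0 to 4 h the slope of Pmaip1 in WT was 3e-04 and the slope differences of Cdkn1a and Bbc3 were 0.086 and 0.17, and over 4 to 8 h the slopes of Cdkn1a and Fas in WT were 0.051 and 0.045. Scaling to mitochondrial mRNAs left 0 genes of all 18303 with a called association, and split all genes 825 higher and 6 lower in total RNA, against 2931 and 2225.

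No label says that a replicate number marks a shared day. Deviations of same-numbered WT and KO libraries correlated at 0.181 in total RNA and 0.273 in polysomes. In the actinomycin D series the values were 0.03 at 0 h, -0.025 at 4 h and 0.024 at 8 h. Over all pairs of groups they ran from -0.053 to 0.273 on day 3 and from -0.132 to 0.088 in the actinomycin D series. The polysome value was thus the highest of day 3, and whether the numbers pair the samples cannot be told. With the replicate block, 1 of the 2 genes of faster loss passed (Bax, and not Pmaip1) and 1 gene, Bax, was lower in the difference between days, in place of 0. Of 100 values 98 kept their side.

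With 2 libraries a group, differences under about 0.4 log2 in total RNA and polysomes are at the limit of the test. Larger ones can also miss it where the error is wide. In total RNA Trp53 (-0.50 ± 0.18) and Rpl5 (-0.55 ± 0.33) did not pass. Fas is limited by its counts in WT. Loss is known only relative to the pool, and with 3 times a curve cannot be told from a delay.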
